A study of Mus musculus with 15 samples.

Results

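The effect of losing Klf3 alone was read from 7 of the 15 arrays of the study, 3 labelled Klf3-null and 4 labelled wild type. Each array held RNA of TER119+ cells, taken with magnetic beads from mouse fetal liver of E13.5 embryos on the FVB/NJ background. The groups used here are Klf3-/- (3 arrays), wild type (4 arrays), Klf3-/- Klf8gt/gt (4 arrays, called double mutant) and Klf8gt/gt alone (4 arrays, called Klf8 trap). The double mutant lacks Klf3 and carries a gene trap in Klf8. Klf8 lies on the X chromosome, and Y-linked genes were high in 2 of 4 arrays of each trap genotype, so gt/gt is given as labelled. The labels name no Cre or tissue-specific promoter for the Klf3 allele, and do not say whether an array stands for 1 embryo or several. Values are log2 signals per transcript cluster, a cluster being the set of probes that reads 1 gene or part of it. Differences are Klf3-null minus wild type on the log2 scale with their standard error from limma, and a cluster passed the test where the p adjusted by Benjamini and Hochberg over 23410 clusters with a gene symbol was under 0.05. "Klf3-null" names the label, since the arrays do not check the deletion.

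KLF3 belongs to the Kruppel-like factors, zinc finger proteins that bind CACCC and related GC-rich motifs. It is known mainly as a repressor and acts through the corepressor CtBP. In erythroid cells the activator KLF1, which drives globin, haem and membrane genes, raises Klf3, and KLF3 can occupy CACCC motifs that KLF1 also binds. Klf8 is a related CtBP-binding repressor and, with Lgals3 and C1qtnf12, a published target of KLF3.

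Since KLF3 binds CACCC, the promoters of 4 genes with large rises are printed with every CACCC, on either strand, in capitals (GGGTG is the same motif on the other strand). The sequences are RefSeq's for assembly GRCm38.p6, 5′ to 3′ on the gene's strand, and run over 300 bases from upstream of an annotated start to just past it. Klf8 has an entry for 2 starts, at chrX:153237498-153237797 and chrX:153359363-153359662 (both + strand). Rragd lies at chr4:32982748-32983047 (+), Lgals3 at chr14:47373610-47373909 (+) and Pqlc3 at chr12:17000069-17000368 (-).
Klf8, start 1: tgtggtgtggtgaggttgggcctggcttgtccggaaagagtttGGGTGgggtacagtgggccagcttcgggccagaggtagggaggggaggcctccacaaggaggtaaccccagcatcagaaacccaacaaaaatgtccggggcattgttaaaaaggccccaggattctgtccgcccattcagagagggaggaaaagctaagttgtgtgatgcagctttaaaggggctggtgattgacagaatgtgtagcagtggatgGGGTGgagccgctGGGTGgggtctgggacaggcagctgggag
Klf8, start 2: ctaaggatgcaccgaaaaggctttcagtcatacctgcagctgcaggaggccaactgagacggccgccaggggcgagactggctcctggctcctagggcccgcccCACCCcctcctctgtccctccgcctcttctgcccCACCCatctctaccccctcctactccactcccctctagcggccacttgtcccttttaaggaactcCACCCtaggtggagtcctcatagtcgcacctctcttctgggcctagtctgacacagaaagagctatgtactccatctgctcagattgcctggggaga
Rragd: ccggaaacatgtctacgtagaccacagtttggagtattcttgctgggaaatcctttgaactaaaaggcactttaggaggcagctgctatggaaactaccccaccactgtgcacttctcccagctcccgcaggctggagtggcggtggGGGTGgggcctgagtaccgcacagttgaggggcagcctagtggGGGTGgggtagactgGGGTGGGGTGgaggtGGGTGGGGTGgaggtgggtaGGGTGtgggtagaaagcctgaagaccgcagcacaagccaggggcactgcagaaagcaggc
Lgals3: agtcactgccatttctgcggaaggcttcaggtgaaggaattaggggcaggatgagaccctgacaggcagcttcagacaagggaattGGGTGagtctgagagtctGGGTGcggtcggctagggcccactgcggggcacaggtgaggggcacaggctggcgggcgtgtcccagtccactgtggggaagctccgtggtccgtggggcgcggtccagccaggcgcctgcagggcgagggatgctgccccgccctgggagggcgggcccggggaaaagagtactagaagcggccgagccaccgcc
Pqlc3: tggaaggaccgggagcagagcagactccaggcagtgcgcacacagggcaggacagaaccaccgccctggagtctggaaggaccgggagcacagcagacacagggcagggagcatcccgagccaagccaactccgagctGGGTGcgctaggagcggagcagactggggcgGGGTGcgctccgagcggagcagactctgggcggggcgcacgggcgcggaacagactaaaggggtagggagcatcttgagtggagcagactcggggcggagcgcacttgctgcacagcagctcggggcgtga
Each Klf8 window held 3 copies of CACCC, Rragd held 7, and Lgals3 and Pqlc3 held 2 each. Across the genes that rose, 88 of 111 had a promoter in the table, and 76.3% of their 118 windows held CACCC, against 60.9% of 19177 windows of all measured genes. Of 16 windows of the genes that fell, 8 held it. The degenerate motif CCNCNCCC, where N is any base, need not contain CACCC. It was in 78.0% of windows of risen genes and 59.6% of all windows, and CCACACCC, which contains CACCC, in 7.6% and 3.7%. GATAA, which erythroid GATA1 binds, was in 18.6% and 21.3%. In the 16 windows of fallen genes, CCNCNCCC was in 12, CCACACCC in 1 and GATAA in 4. The share with CCNCNCCC was thus above that of all windows in fallen genes as well as in risen genes. All motifs were counted on both strands and without a test. The median GC content was 59.8% in windows of risen genes and 57.3% in all windows, and its part in these shares was not tested.

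The targeted gene was read first. Klf3 gave 11.40, 11.39 and 11.16 in Klf3-null arrays, against 10.12, 10.20, 10.27 and 10.51 in wild-type arrays. Every Klf3-null array was above every wild-type array, so the signal of the targeted gene rose (1.04 ± 0.13, 2.06-fold, adjusted p = 0.000637). Where the probes lie relative to the deletion is not known here, so this value cannot check the label, and every direction rests on the genotypes as labelled. An exact two-sided permutation of 3 against 4 arrays gave p = 0.0571 for Klf3 and for Klf8 (0.0571 after Benjamini-Hochberg adjustment over both), the smallest value it can give.

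Erythroid markers had high signal in both groups, and so did some hepatocyte markers. The mean of 9 erythroid markers was 12.42 to 12.63 in Klf3-null arrays and 12.56 to 12.75 in wild-type arrays, and none of the 9 passed the test. The brightest, Slc4a1, averaged 13.76 in Klf3-null and 13.83 in wild-type arrays. The hepatocyte marker Afp averaged 14.12 and 13.99. Alb, also of hepatocytes, gave 13.96, 14.01 and 14.03 in Klf3-null arrays, against 13.96, 13.89, 14.04 and 14.07 in wild-type arrays. The other listed hepatocyte markers averaged below Slc4a1, down to Serpina1d (4.97 and 5.08). The signal was thus not of erythroid genes alone. Arrays correlated at 0.995 to 0.997 within the Klf3-null group, 0.994 to 0.996 within wild type and 0.991 to 0.994 between them. Y-linked genes were high in 1 of 3 Klf3-null arrays (replicate 3) and in 4 of 4 wild-type arrays, so that sex was unevenly spread between the groups. Klf3-null replicate 3 was also the array with the lowest mean of 15 macrophage markers (8.28, against 8.79 and 8.81 in replicates 1 and 2 and 8.93 to 9.19 in wild type). It was the lowest of the Klf3-null arrays at 102 of 122 clusters that rose (83.6%) and 13 of 15 that fell (86.7%), but at 32.1% of all tested clusters. Double mutant replicate 1 stood apart in the macrophage mean, at 7.11 against 7.78 to 8.70 in the other double mutant arrays, and the comparison that uses that genotype is also given without it and Klf8-trap replicate 1. The median rise over the 122 clusters was 1.06, 1.10 and 0.86 in replicates 1, 2 and 3, each taken against the wild-type mean.

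Loss of Klf3 was followed mainly by higher signals. Of 23410 clusters 137 passed (0.585%), 122 of them higher (0.521%) and 15 lower (0.0641%). The higher clusters stood for 111 genes with 1 symbol, beside 7 clusters that name several genes, and the lower ones for 15 genes. At all 137 the arrays of the groups did not overlap, as was so for 14.5% of all tested clusters (8.79% higher, 5.7% lower). Rises ran from 0.39 to 4.04 with a median of 1.03, and falls from -0.46 to -1.16 with a median of -0.80.

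The excess of rises was largest among the clusters with the smallest p. At an adjusted p under 0.01, 73 clusters were higher and 7 lower (91.2% higher), and at 0.05 the share was 89.1% (exact 95% binomial interval 82.6% to 93.7%, which treats clusters as independent). It was 85.6% at 0.1 (154 and 26) and 76.7% at 0.2 (224 and 68). At an unadjusted p under 0.05 the counts were 1035 higher and 797 lower (56.5%), and over all tested clusters 48.1% had a difference above 0. Among clusters that passed, 63 were higher and 4 lower by at least 1, and 26 were higher and 0 lower by at least 1.5 in limma. By size alone, with no test, the share did not rise steadily. There were 457 higher and 132 lower by at least 0.5 (77.6% higher), and 82 and 29 by at least 1 (73.9%). At 1.5 there were 29 and 4 (87.9%), at 2 there were 17 and 2 (89.5%), and at 3 there were 5 and 1 (83.3%). Sex-linked genes were among those of at least 2: both lower clusters were Y-linked, and 1 of the 17 higher was Xist (4.37 ± 2.30, adjusted p = 0.691). Xist is transcribed from the inactive X and was high in Klf3-null replicates 1 and 2 alone. The counts depended on single arrays and on the model, while rises stayed in the majority in each of the 19 other fits (72.9% to 92.2%). They were 54 higher and 7 lower without Klf3-null replicate 1, 56 and 9 without replicate 2, 80 and 9 without wild-type replicate 2, and 81 and 8 without wild-type replicate 3. They were 33 and 7 with high Y-linked arrays alone. With array weights they were 435 and 162 (72.9% higher), and with the Y-linked signal as a covariate 104 and 27 (79.4%).

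**Figure D1:**
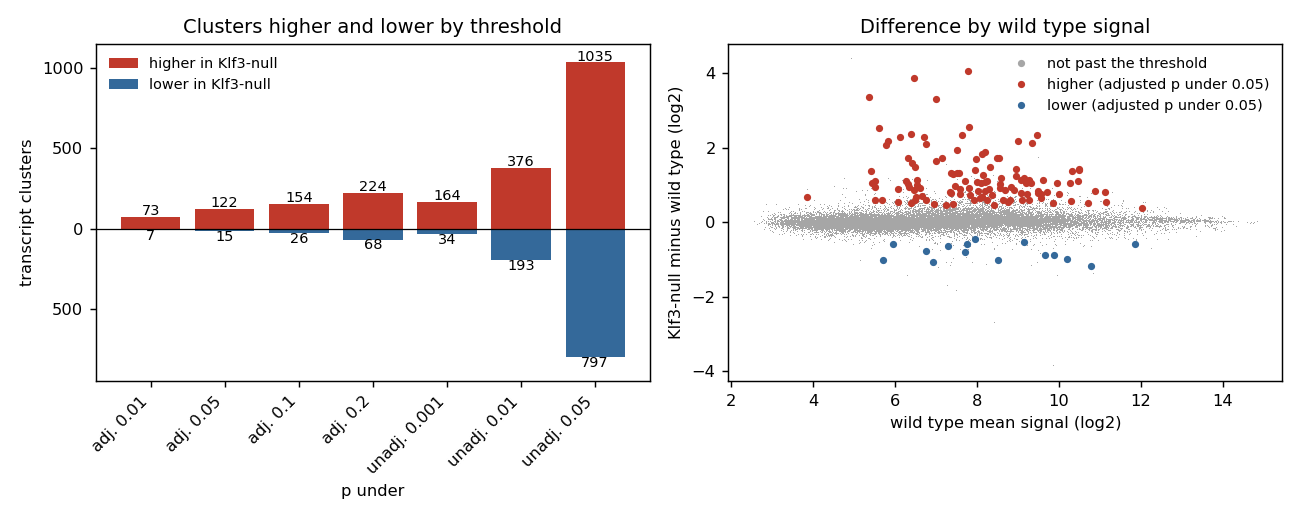
Left, numbers of transcript clusters higher (above 0) and lower (below 0) in Klf3-null than in wild-type arrays at 7 p-value thresholds, adjusted (adj.) or unadjusted (unadj.), with 122 higher and 15 lower at an adjusted p under 0.05. Right, the difference on the log2 scale against the wild-type mean signal for each of 23410 clusters, with those past the threshold coloured; the large points above 0 spread over wild-type signals from dim to bright.

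The genes that rose mostly had wild-type signals above the array medians, a mark that is not a detection limit. The median over the 122 clusters was 9.20 in Klf3-null and 8.09 in wild-type arrays, against 6.71 and 6.69 over all tested clusters. In wild-type arrays 15 of the 122 (12.3%) had a mean below the median of every array of the group, as did 43.8% of all tested clusters. In Klf3-null arrays 3 of the 122 did (2.5%), and 44.3% of all tested clusters. The 122 were chosen as higher in Klf3-null arrays, so the 2.5% follows in part from that choice. Whether dim clusters pass the test less often was not tested. Among the 15 were Klf8, Kdelr3, Dkkl1, which encodes a dickkopf-like protein, Hydin, a protein of motile cilia, and the magnesium channel gene Trpm6. A signal below the array median has no dependable scale, so no fold is given for these 5. Hydin gave 8.10, 7.94 and 7.58 in Klf3-null arrays, against 5.82, 5.88, 5.75 and 5.71 in wild-type arrays. Dkkl1 gave 8.20, 8.28 and 7.56 in Klf3-null arrays, against 5.78, 6.02, 5.67 and 5.89 in wild-type arrays. Both moved past the median of every array in all 3 Klf3-null arrays (2.08 ± 0.21 for Hydin and 2.17 ± 0.22 for Dkkl1, adjusted p = 8.84e-05 for each), and neither group overlapped the other. At the bright end Cd59a, which encodes an inhibitor of complement on the cell surface, gave 11.72, 11.79 and 11.53 in Klf3-null arrays, against 10.26, 10.16, 10.51 and 10.31 in wild-type arrays (1.37 ± 0.20, 2.58-fold, adjusted p = 0.00277).

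The published targets moved together, 3 of 3 higher with a median of 3.29, beside -0.01 over all tested clusters. Since earlier work on Klf3-deficient mice chose these genes, they are not independent evidence of direction. Klf8 gave 8.83, 8.89 and 8.42 in Klf3-null arrays, against 5.13, 5.55, 5.34 and 5.43 in wild-type arrays. The wild-type signals lay below the array medians of 6.29 to 6.33 and the Klf3-null signals far above them (3.35 ± 0.22, adjusted p = 8.78e-07). Lgals3, encoding the lectin galectin-3, gave 11.27, 11.34 and 10.93 in Klf3-null arrays, against 9.07, 9.01, 9.33 and 8.61 in wild-type arrays. C1qtnf12, encoding the secreted protein adipolin, gave 10.41, 10.36 and 10.08 in Klf3-null arrays, against 7.02, 7.06, 7.11 and 6.76 in wild-type arrays. At both genes every Klf3-null array lay more than 1.5 log2 units above every wild-type array. Among the other Kruppel-like factors none passed. Klf12, the third CtBP-binding member, differed by 0.46 ± 0.29 (adjusted p = 0.738), Klf6 by -0.36 ± 0.14 (adjusted p = 0.523) and Klf1 by -0.14 ± 0.11 (adjusted p = 0.792), so that 2 of 17 measured members were past the threshold, Klf3 and Klf8. Neither the 8 Sp factors (median -0.10) nor the 14 genes of the CtBP complex and its partners (median 0.01) held a member that passed.

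Counts in a list, here and below, stand beside all tested clusters, of which 0.521% passed higher, 0.0641% passed lower and 48.1% had a difference above 0. Lists were chosen with earlier results of these data known, so a call in a list is not independent evidence about it. In the lysosome list and in the list of amino acid sensing by mTORC1, 1 gene each passed the threshold. Pqlc3, a PQ-loop membrane protein, gave 11.96, 11.93 and 11.62 in Klf3-null arrays, against 7.86, 7.90, 8.01 and 7.39 in wild-type arrays. It was the 1 gene of 27 in the lysosome list that passed (4.04 ± 0.22, adjusted p = 1.04e-07), and the list median was 0.09. Rragd, a Rag GTPase that carries the amino acid signal to mTORC1 at the lysosome, gave 10.45, 10.49 and 10.06 in Klf3-null arrays, against 5.71, 6.58, 6.37 and 7.20 in wild-type arrays. The wild-type arrays spread over 1.5 log2 units at Rragd and still lay below every Klf3-null array. Of 27 genes of that pathway Rragd was the only one past the threshold, with a list median of 0.00. Fnip2, a partner of folliculin, which acts on RagC and RagD, differed by -0.72 ± 0.17 (adjusted p = 0.083). Sidt2, which is in neither list, encodes a lysosomal membrane protein that takes up nucleic acids and gave 11.50, 11.39 and 11.48 in Klf3-null arrays, against 9.25, 9.29, 9.40 and 9.38 in wild-type arrays, 4.36-fold with tight groups (2.12 ± 0.26, adjusted p = 0.000471). None of 26 autophagy genes passed, and 20 of them had a difference below 0 (median -0.12).

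In the secretory pathway Kdelr3, a receptor that returns proteins to the endoplasmic reticulum, gave 8.33, 8.25 and 7.86 in Klf3-null arrays, against 5.68, 5.50, 5.77 and 5.50 in wild-type arrays (2.53 ± 0.18, adjusted p = 2.67e-06). It was the only member of 25 that passed. The other listed members sat mostly a little above 0: counting Kdelr3, 23 of 25 had a difference above 0, with a median of 0.11, where 48.1% of all tested clusters were above 0. The receptor of the same family Kdelr1 differed by 0.26 ± 0.18 (adjusted p = 0.763). Atl1, a GTPase that shapes the endoplasmic reticulum, rose by 1.48 ± 0.23 (2.80-fold, adjusted p = 0.00375). Arl15, an ARF-like GTPase of vesicle traffic, gave 10.06, 10.18 and 9.69 in Klf3-null arrays, against 7.58, 7.45, 7.79 and 7.69 in wild-type arrays, and rose 5.08-fold while the 7 other measured ARF-like genes did not pass.

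S100 proteins and annexins bind calcium, and annexins bind membranes. Of 21 S100 proteins and annexins 3 rose and 0 fell, with a median of 0.20, where 0.521% of all tested clusters rose. S100a10, known as the partner of annexin A2, gave 11.79, 11.91 and 11.68 in Klf3-null arrays, against 9.26, 9.28, 9.49 and 9.82 in wild-type arrays (2.33 ± 0.18, 5.03-fold, adjusted p = 7.94e-06). Anxa5, which binds phosphatidylserine, rose by 0.81 ± 0.15 (adjusted p = 0.0159) and Anxa7 by 0.58 ± 0.12 (adjusted p = 0.0397), but Anxa2 itself differed by 0.62 ± 0.18 and missed the threshold (adjusted p = 0.257). The annexin calls depended on single arrays. Anxa5 missed the threshold without Klf3-null replicate 1 (adjusted p = 0.125) or 2 (0.114) and without wild-type replicate 2 (0.0546) or 3 (0.0552), and Anxa7 without any array but Klf3-null replicate 3 (adjusted p = 0.099 to 0.267). Of 9 galectins, Lgals3 was the only one that passed (median 0.19).

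Among 30 listed genes of the actin cytoskeleton and adhesion 2 rose and 0 fell (median 0.10), where 0.521% of all tested clusters rose. Cttnbp2nl, which binds cortactin at actin fibres, gave 9.53, 9.61 and 9.21 in Klf3-null arrays, against 7.20, 7.36, 7.82 and 7.66 in wild-type arrays (1.94 ± 0.26, 3.84-fold, adjusted p = 0.00125). Lmna, encoding the A-type lamins of the nuclear envelope, rose by 0.64 ± 0.13 (adjusted p = 0.0275), and its call was lost without Klf3-null replicate 1 (adjusted p = 0.212) or 2 (0.173) and without wild-type replicate 1 (0.0944), 3 (0.109) or 4 (0.0723). Outside that list the actin-capping gene Capg rose 2.49-fold (1.32 ± 0.15, adjusted p = 0.000348), the actin-binding gene Shroom2 3.28-fold (1.71 ± 0.20, adjusted p = 0.000348) and Tppp3, which promotes tubulin assembly, 3.31-fold (1.73 ± 0.23, adjusted p = 0.00115). Tbccd1, a protein of the centrosome, rose 3.28-fold (1.71 ± 0.22, adjusted p = 0.000822). The actin-associated genes Iqgap1, Msn and Lsp1, also outside the list and chosen after their values were seen, rose less. Their differences were 0.86 ± 0.15 (adjusted p = 0.00871), 0.54 ± 0.09 (adjusted p = 0.00871) and 0.60 ± 0.10 (adjusted p = 0.00713).

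Supt3, a subunit of the histone-modifying SAGA complex, gave 10.46, 10.49 and 10.11 in Klf3-null arrays, against 7.72, 7.97, 7.77 and 7.75 in wild-type arrays. It was past the threshold alone among 19 SAGA genes (median 0.00). Dffb, the nuclease that cuts DNA in apoptosis, gave 9.19, 8.82 and 8.94 in Klf3-null arrays, against 6.81, 6.84, 6.64 and 6.55 in wild-type arrays, with 1 of 17 apoptosis genes past the threshold (2.27 ± 0.21, 4.84-fold, adjusted p = 5.02e-05). Spi1, encoding the myeloid factor PU.1, gave 9.70, 9.96 and 9.36 in Klf3-null arrays, against 7.98, 8.28, 7.94 and 7.74 in wild-type arrays. All 3 Klf3-null arrays were higher (1.69 ± 0.20, 3.22-fold, adjusted p = 0.000367). Of 15 listed myeloid regulators Spi1 alone passed, with 11 of 15 below 0, and 0 of 14 listed granulocyte and myeloid markers passed in limma (1 at an unadjusted p under 0.05, median -0.09). Outside both lists 2 clusters that name several genes of the paired immunoglobulin-like receptors of myeloid and other blood cells (Pirb, Pira1, Pira2 and others, chosen after their values were seen) rose, by 1.10 ± 0.15 (adjusted p = 0.00164) and 0.89 ± 0.15 (adjusted p = 0.00785).

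**Figure D2:**
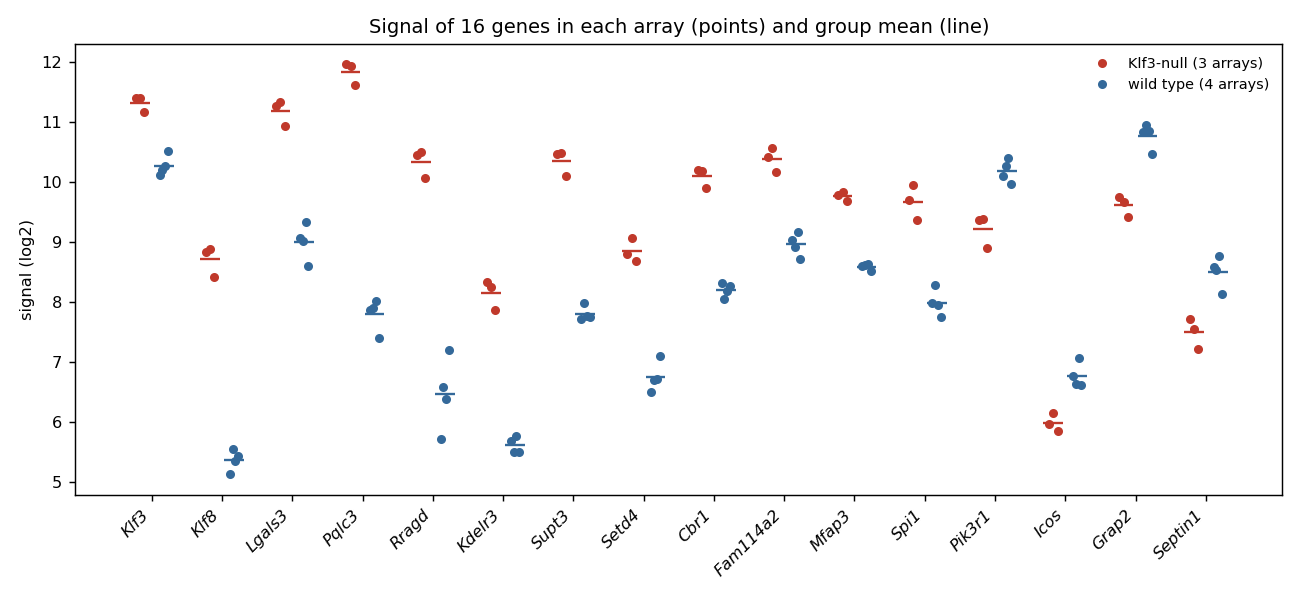
Signal on the log2 scale of 16 genes in each of 3 Klf3-null and 4 wild-type arrays (points) with group means (lines). Klf3-null points lie above all wild-type points at the first 12 genes and below them at Pik3r1, Icos, Grap2 and Septin1; Klf3-null replicate 3, the right-hand point of each Klf3-null set, is the lowest of its group at most of them.

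The remaining named rises were in enzymes, transporters and signalling proteins. Prune2 rose in 1 of its clusters (8.88, 8.87 and 8.57 in Klf3-null arrays, against 6.49, 6.49, 6.33 and 6.28 in wild-type arrays), while the second cluster, at 5.25 to 5.66 in all 7 arrays and so below the array medians, differed by -0.18 (adjusted p = 0.773) and says little of the rest of the gene. Plekha2, a phosphoinositide-binding adaptor, rose 3.55-fold, Glipr2 3.29-fold and Slc6a20a, a proline transporter, by 1.58 on the log2 scale. Apol8 of the apolipoprotein L family rose 2.63-fold, Prr13 2.69-fold, the ubiquitin ligase gene Znrf2 2.76-fold, the ferric reductase gene Frrs1 2.38-fold and the tetraspanin gene Tspan14 2.27-fold. Adjusted p for these 8 was between 0.000108 and 0.00286. Another 6 named genes rose but lost their call without single arrays. The sialidase gene Neu3 (1.33 ± 0.22), the glycosyltransferase gene B3gnt3 (1.39 ± 0.24) and Trpm6 (1.38 ± 0.23) lost it without Klf3-null replicate 1 (adjusted p = 0.0731, 0.0796 and 0.0532) and without replicate 2 (0.058, 0.0871 and 0.0831). Limd1 (1.27 ± 0.23) missed it without 5 arrays, namely Klf3-null replicates 1, 2 and 3 and wild-type replicates 1 and 4 (adjusted p = 0.0503 to 0.119). Klhl2, a cullin-3 adaptor (1.65 ± 0.31), missed it without any array but wild-type replicate 4 (0.0522 to 0.132), and the phosphatase gene Ubash3b (1.32 ± 0.25) without any but Klf3-null replicate 3 (0.0615 to 0.17).

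Risen genes lay next to each other on the chromosome at 3 places. Setd4, a SET-domain methyltransferase, gave 8.80, 9.07 and 8.69 in Klf3-null arrays, against 6.49, 6.69, 6.72 and 7.10 in wild-type arrays. Its neighbour on chromosome 16, the carbonyl reductase gene Cbr1, gave 10.20, 10.19 and 9.90 in Klf3-null arrays, against 8.31, 8.04, 8.18 and 8.27 in wild-type arrays. The rises were of like size, 2.10 ± 0.23 (adjusted p = 0.00021) and 1.89 ± 0.22 (adjusted p = 0.000367). On chromosome 11 Fam114a2 gave 10.41, 10.56 and 10.16 in Klf3-null arrays, against 9.02, 8.92, 9.17 and 8.72 in wild-type arrays. Its neighbour Mfap3, annotated as a microfibril-associated protein, gave 9.78, 9.83 and 9.68 in Klf3-null arrays, against 8.59, 8.61, 8.64 and 8.51 in wild-type arrays. These too rose by like amounts, 1.42 ± 0.16 (adjusted p = 0.000256) and 1.17 ± 0.13 (adjusted p = 0.00021). On chromosome 4 the neighbour of Rragd, the ubiquitin-conjugating enzyme gene Ube2j1 (chosen after its values were seen), rose by 0.75 ± 0.15 (adjusted p = 0.0235), far less than Rragd. In the order of the GRCm38.p6 gene table, 222 measured genes stood directly beside a risen gene and 6 of them (2.703%) had risen themselves, against 0.557% of 19917 measured genes, with no test. The other neighbours had a median difference of 0.00.

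The fallen genes were fewer, their changes smaller, and several rested on single arrays. Pik3r1, the regulatory subunit of phosphoinositide 3-kinase, gave 9.36, 9.38 and 8.89 in Klf3-null arrays, against 10.11, 10.27, 10.40 and 9.96 in wild-type arrays. It fell 1.97-fold (-0.98 ± 0.16, adjusted p = 0.00576) and was the only one of 20 PI3K and AKT genes past the threshold, with 16 of 20 below 0 (median -0.05). Of 18 antigen receptor adaptors and kinases 2 fell and 0 rose (median -0.11), where 0.0641% of all tested clusters fell. Grap2, an adaptor of lymphoid and other blood cells, gave 9.75, 9.67 and 9.41 in Klf3-null arrays, against 10.83, 10.94, 10.85 and 10.47 in wild-type arrays (-1.16 ± 0.21, adjusted p = 0.0128). Icos, a costimulatory receptor of T cells, gave 5.96, 6.15 and 5.84 in Klf3-null arrays, all under the array medians, against 6.75, 6.64, 7.06 and 6.61 in wild-type arrays (-0.78 ± 0.15, adjusted p = 0.0189). Grap2 lost its call without any of 5 arrays, Klf3-null replicates 1, 2 and 3 and wild-type replicates 2 and 3 (adjusted p = 0.0515 to 0.0851). Icos lost it without Klf3-null replicate 1 or 3 (0.12 for each) and wild-type replicate 1 (0.0586) or 3 (0.0697). Of 13 lymphoid and mast cell markers 10 had means under the lower quartile of every array in both groups. The other 3, Cd3e, Cd79b and Pax5 of T and B cells, averaged 5.86, 6.17 and 5.31 in Klf3-null arrays, against 5.96, 6.14 and 5.22 in wild-type arrays, also dim.

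Septin1, a GTP-binding cytoskeletal protein, gave 7.72, 7.54 and 7.22 in Klf3-null arrays, against 8.58, 8.54, 8.76 and 8.13 in wild-type arrays (-1.01 ± 0.21, adjusted p = 0.0476), and none of the 11 other measured septins passed. Dnaja4, a cochaperone of HSP70, gave 9.12, 9.05 and 8.79 in Klf3-null arrays, against a mean of 9.88 ± 0.10 in wild-type arrays (SD, n = 4), a difference without overlap (-0.89 ± 0.17, adjusted p = 0.0217), alone among 20 heat shock genes. Septin1 missed the threshold without any array but wild-type replicate 4 (adjusted p = 0.0984 to 0.26) and Dnaja4 without any but wild-type replicate 1 (0.063 to 0.141). Gbp2b, an interferon-inducible GTPase, gave 5.81, 6.16 and 5.60 in Klf3-null arrays, under the array medians, against 7.08, 6.83, 6.90 and 6.93 in wild-type arrays (-1.08 ± 0.16, adjusted p = 0.00319). Of 22 listed interferon response genes it was the only one that passed (median 0.04). Cmpk2, an interferon-induced nucleotide kinase that the list does not hold (chosen after its values were seen), gave 8.05, 7.78 and 7.17 in Klf3-null arrays, against 6.45, 6.61, 6.61 and 6.45 in wild-type arrays, and rose by 1.13 ± 0.23 (adjusted p = 0.0336). Rsad2, an antiviral enzyme, was also higher but did not pass (1.72 ± 0.47, adjusted p = 0.191). It gave 11.37, 11.34 and 10.90 in Klf3-null arrays, against 9.22, 9.37, 9.95 and 9.40 in wild-type arrays.

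Of the 14 named falls 6 kept their call without any single array: Pik3r1, Gbp2b, Lipo3, Pdzk1ip1, which encodes a small membrane protein (-0.87 ± 0.13), the arrestin-domain gene Arrdc2 (-0.59 ± 0.09) and the alpha-tubulin gene Tuba4a. Tuba4a gave 11.30, 11.34 and 11.22 in Klf3-null arrays, against 11.86, 11.89, 11.91 and 11.78 in wild-type arrays, a small and tight fall (-0.58 ± 0.07, 1.49-fold, adjusted p = 0.000637). Lipo3, of the lipase family, also passed (adjusted p = 0.000822), to a Klf3-null mean under the lower quartile of each array, so no size is given. Asb2, the substrate receptor of a ubiquitin ligase, fell by 0.80 (-0.80 ± 0.13, adjusted p = 0.00788) and missed the threshold without Klf3-null replicate 3 (adjusted p = 0.0546). Tmem26 (-0.64 ± 0.14, adjusted p = 0.0446) and Hif3a, a hypoxia-inducible factor (-0.46 ± 0.10, adjusted p = 0.0489), missed it without any single array (0.0735 to 0.244 and 0.0729 to 0.278). N4bp2 lies 25 genes after Klf3 on chromosome 5 and was the only called gene, Klf3 aside, among 79 tested clusters within 100 genes on either side. It gave 8.57, 8.68 and 8.60 in Klf3-null arrays, against 9.12, 9.14, 9.22 and 9.15 in wild-type arrays (-0.54 ± 0.10, adjusted p = 0.0125). Its call was lost without Klf3-null replicate 1 (adjusted p = 0.0984), 2 (0.053) or 3 (0.0588) and without wild-type replicate 3 (0.0535).

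Erythroid programmes did not hold a member past the threshold. Of 19 genes known to need KLF1, 19 transcription factors of the lineage, 20 haem and iron genes, 19 membrane and skeleton genes, 14 late maturation genes and 16 Epo receptor signalling genes, 0 passed in limma. The medians were -0.07, -0.06, -0.13, -0.11, -0.20 and -0.05, beside -0.01 over all tested clusters, and at an unadjusted p under 0.05 the counts were 2, 4, 1, 3, 0 and 2. All 14 late maturation genes had a difference below 0, the largest in Tspo2 (-0.85 ± 0.50, adjusted p = 0.72) and Ypel4 (-0.45 ± 0.26, adjusted p = 0.709). Tspo2, which acts in maturing erythroblasts, gave 8.87, 8.84 and 8.37 in Klf3-null arrays, against 9.73, 10.42, 9.87 and 8.17 in wild-type arrays, so that wild-type replicate 4 lay below all 3 Klf3-null arrays. The water channel gene Aqp1 came nearest to the threshold in these lists (-0.60 ± 0.13, adjusted p = 0.0675). Embryonic globins overlapped between groups: Hbb-bh1 gave 9.88, 10.07 and 9.79 in Klf3-null arrays, against 9.64, 10.61, 10.54 and 11.25 in wild-type arrays (-0.60 ± 0.41, adjusted p = 0.764). None of 31 listed cell cycle genes (median -0.03) or 13 listed p53 targets (0.02) passed. Outside these lists the replication gene Orc1 rose by 1.08 ± 0.20 (adjusted p = 0.0189). The DNA repair gene Brca2 rose by 0.95 ± 0.16 (adjusted p = 0.00992), and both were chosen after their values were seen.

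Metabolic lists also held no call but leaned to one side. All 17 lipid and sterol synthesis genes had a difference above 0 (median 0.28), 6 of them at an unadjusted p under 0.05 and 0 after adjustment in limma. Insig1, which retains the sterol sensor in the endoplasmic reticulum, gave 9.98, 10.16 and 10.35 in Klf3-null arrays, against 9.59, 9.38, 9.65 and 9.50 in wild-type arrays (0.63 ± 0.18, adjusted p = 0.241). Elovl6, a fatty acid elongase, differed by 0.67 ± 0.33 (adjusted p = 0.67) and Sqle, of cholesterol synthesis, by 0.58 ± 0.22 (adjusted p = 0.516). Of 18 genes in the glycolysis list 0 passed (median 0.26). The list counts Pigq, which is not a glycolysis enzyme (0.24 ± 0.11, adjusted p = 0.636). It leaves out the enolase gene Eno3 (chosen after its values were seen), which rose by 0.47 ± 0.10 (adjusted p = 0.0344). Pfkp, the platelet-type phosphofructokinase, gave 8.95, 8.69 and 8.68 in Klf3-null arrays, against 7.43, 7.09, 7.24 and 7.20 in wild-type arrays, with no overlap and a difference of 1.53 ± 0.41 (adjusted p = 0.166). Hepatocyte markers, which include lipid carriers, leaned the same way with 0 of 12 past the threshold: their mean was 11.46 to 11.72 in Klf3-null arrays and 11.15 to 11.56 in wild-type arrays (median difference 0.23), and its part in the lipid list was not tested. Respiratory chain (0 of 28, median 0.06), ribosomal protein (0 of 22, 0.04) and Dnmt and polycomb genes (0 of 19, -0.02) stayed near 0. In bulk samples fewer cells of a type and less RNA per cell cannot be told apart.

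**Figure D3:**
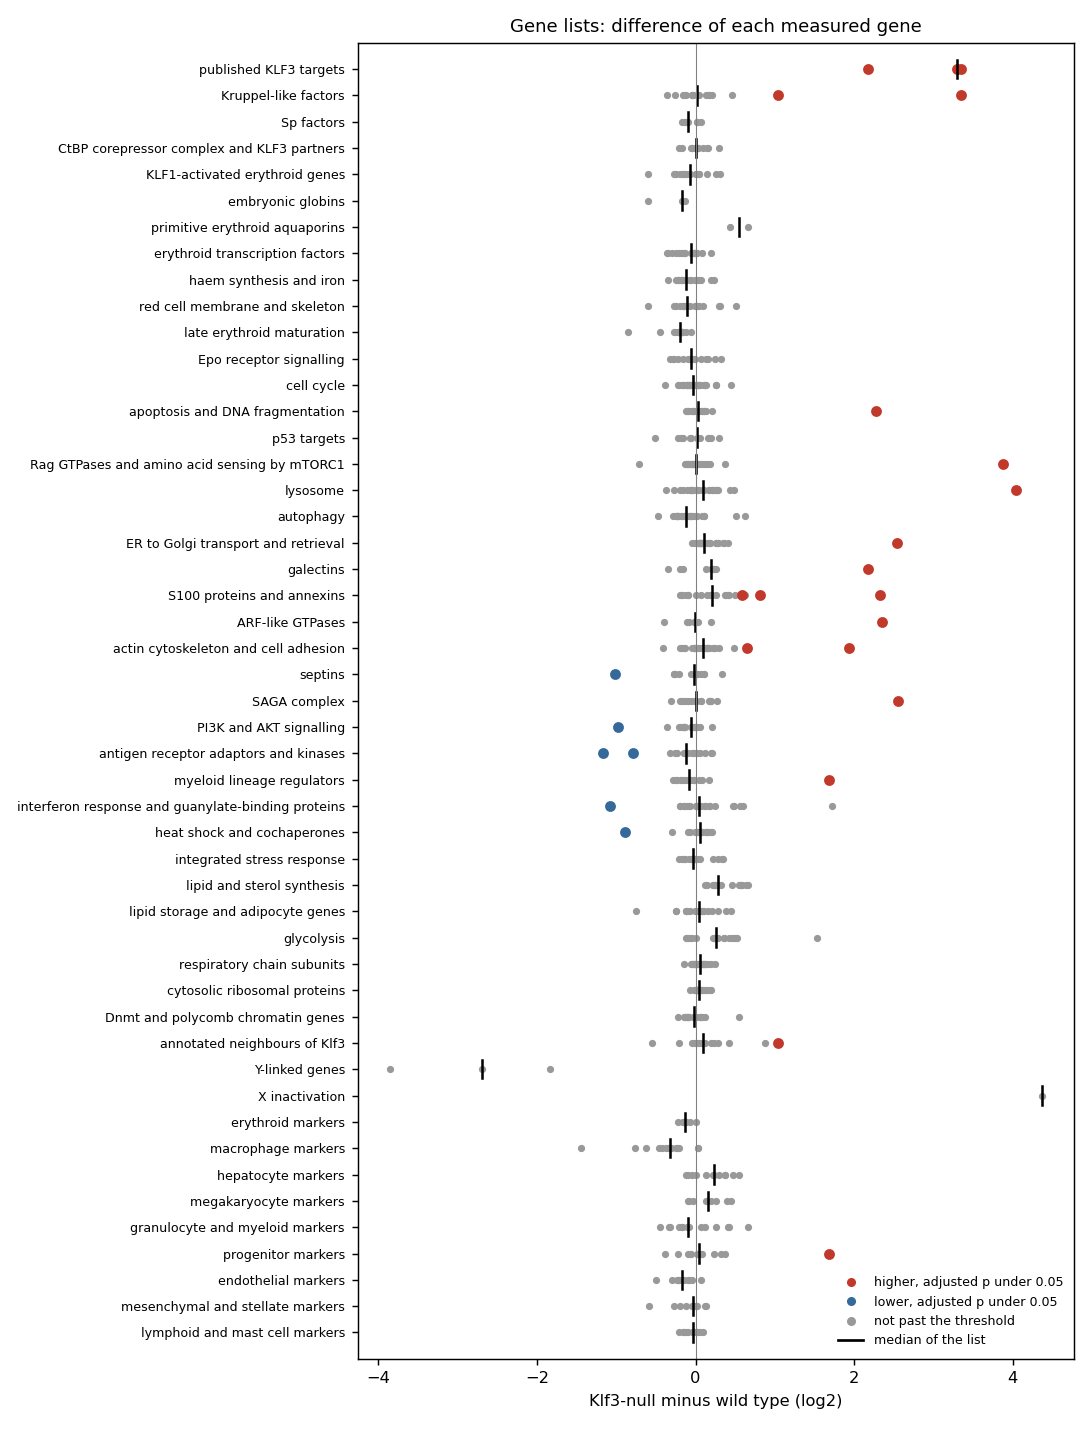
Difference on the log2 scale, Klf3-null minus wild type, of every measured gene in each list (points), with the median of the list (black bar). Red and blue points passed the threshold upward and downward; most lists hold 0 or 1 coloured point far from the rest, while late erythroid maturation lies wholly below 0 and lipid and sterol synthesis wholly above it.

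Markers of other cell types were read beside these lists. Macrophage markers were lower in 13 of 15 genes (median -0.32, range of the array means 8.28 to 8.81 in Klf3-null and 8.93 to 9.19 in wild type), and 0 passed. Cd5l, a secreted protein of tissue macrophages, gave 8.67, 8.64 and 8.19 in Klf3-null arrays, against 10.07, 9.76, 10.22 and 9.73 in wild-type arrays (-1.44 ± 0.36, adjusted p = 0.119). With the macrophage mean as a covariate 146 clusters passed, 127 of them higher, and 105 of the 137 were kept. Endothelial (0 of 10), megakaryocyte (0 of 8) and mesenchymal (0 of 10) markers held no call, and of 12 progenitor markers Spi1 alone passed.

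Klf3 loss was also compared on a Klf8-trap background, in 8 arrays that enter no mean of the comparison above but share in its estimate of the spread. Double mutant minus Klf8 trap gave 785 clusters past the threshold (3.35%), 347 higher (1.48%) and 438 lower (1.87%), so that 44.2% were higher. That split turned when the 8 arrays were fitted alone, to 132 higher and 56 lower, and it was 412 and 833 without double mutant replicate 1 and Klf8-trap replicate 1. Ordered by p, the first 50 clusters of that pair were 47 higher and 3 lower, and the first 137 were 108 higher and 29 lower. Of the 122 clusters that rose in Klf3-null arrays, 121 had the same sign and 105 rose (86.1%, or 30.3% of the 347). Of the 15 that fell, 14 had the same sign and 10 fell (66.7%, or 2.3% of the 438). Over the 122, the median difference was 1.03 in Klf3-null minus wild type and 1.03 in double mutant minus Klf8 trap (0.86 without those 2 arrays), and over the 15 it was -0.80 and -0.54 (-0.53 without them).

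The agreement was less in other fits, which call more clusters. Without the 2 arrays 254 clusters rose and 42 fell in Klf3-null arrays. Of the 254, 200 had the same sign in double mutant minus Klf8 trap, 127 rose and 13 fell. Of the 42, 39 had the same sign, 25 fell and 2 rose. The median over the 254 was 0.73 in Klf3-null minus wild type and 0.45 in the other pair. With each pair fitted on its own arrays 403 clusters rose and 78 fell, 91 and 9 of them also in the other pair, and the median over the 403 was 0.63 in Klf3-null minus wild type and 0.35 in the other pair.

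Values of single genes in the other pair are given with all 8 arrays and then without the same 2. Double mutant minus Klf8 trap gave 4.15 ± 0.21 for Pqlc3 (4.12 without them), 3.92 ± 0.35 for Rragd (3.40), 3.32 ± 0.16 for C1qtnf12 (3.17), 2.32 ± 0.17 for S100a10 (2.09) and 1.10 ± 0.12 for Klf3 (0.96). These lay near the values in Klf3-null minus wild type. Supt3 gave 3.06 ± 0.28 there (2.76 without them), Lgals3 3.11 ± 0.23 (still past the threshold, adjusted p = 1.3e-05), Spi1 2.49 ± 0.18 (2.40) and Arl15 1.64 ± 0.20 (1.37), and the difference between the pairs missed the threshold for these 4 (adjusted p = 0.598, 0.242, 0.223 and 0.296). Of the falls, Grap2 gave -1.85 ± 0.19 (-1.93), Pik3r1 -1.43 ± 0.14 (-1.34), Septin1 -1.46 ± 0.20 (-1.33) and N4bp2 -0.56 ± 0.09 (-0.55). Gbp2b went the other way, at 0.37 ± 0.15 (adjusted p = 0.203), and the difference between the pairs of 1.44 ± 0.22 missed the threshold (adjusted p = 0.0845). Klf8, whose gene carries the trap in that pair, gave 1.90 ± 0.20, and the difference between the pairs was -1.45 ± 0.30 (adjusted p = 0.113). The test of the difference between the pairs passed at 0 of the 137 clusters in limma (33 at an unadjusted p under 0.05) and at 1 of all 23410 (0.00427%). Without the 2 arrays it passed at 11 of the 137 and at 746 of all tested clusters (3.19%). Among the 11 were the named genes Klf8 (-1.67 ± 0.21, adjusted p = 0.00196), Gbp2b (1.44 ± 0.21, 0.00435), Frrs1 (-0.67, 0.0127), Limd1 (-0.88, 0.031), Arl15 (-0.98 ± 0.23, 0.0381) and Lipo3 (0.0428, no size given). These calls rested on leaving out the 2 arrays.

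**Figure D4:**
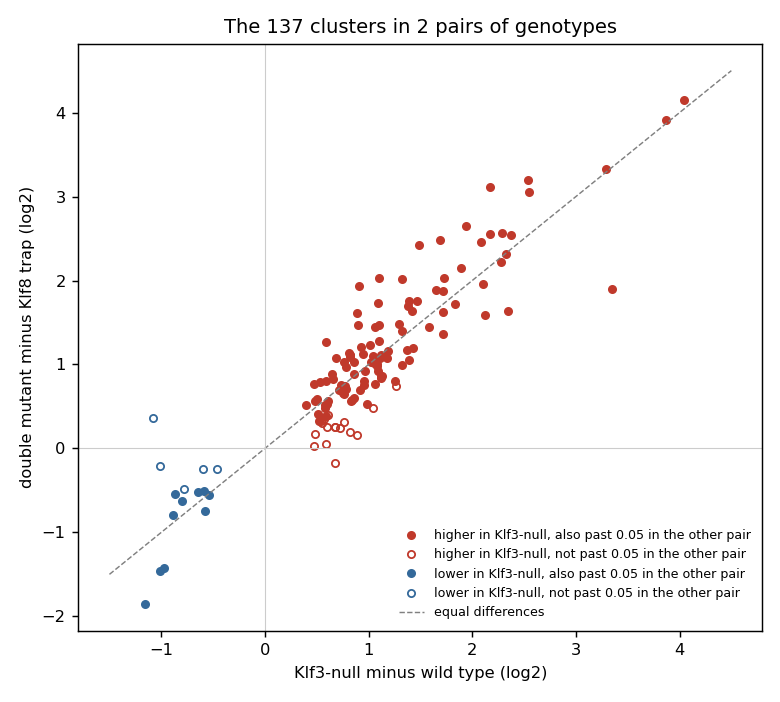
Difference on the log2 scale of the 137 clusters past the threshold, Klf3-null minus wild type on the horizontal axis and double mutant minus Klf8 trap on the vertical axis, with a dashed line of equal differences. Filled points passed in both pairs (115), open points in the first alone (22); 2 points have opposite signs.

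The comparison was also made with only the arrays whose Y-linked signal was high. This left 1 Klf3-null and 4 wild-type arrays, with 2 arrays of each other genotype, so the lone Klf3-null array was taken to vary like the other groups. Then 40 clusters passed, 33 higher and 7 lower. Of the 58 named genes 30 kept their call, 28 lost it and 0 changed sign. Among those that lost it were Klf3 (0.89, adjusted p = 0.125), Spi1 (1.38, 0.0612), Shroom2 (1.49, 0.0613), Tuba4a (-0.64, 0.0866), Arrdc2 (-0.68, 0.106), Pdzk1ip1 (-0.99, 0.118) and N4bp2 (-0.55, 0.213). On the X chromosome 7 of 790 tested clusters passed (0.89%), all higher, for 5 genes: Klf8, Shroom2 and, chosen after their values were seen, Plp2, Acot9 and Msn. At Shroom2 the Klf3-null array with high Y-linked signal gave 8.63 and the others 8.88 and 9.06, against 6.87 to 7.48 in wild-type arrays. The part of sex in these rises was not tested, since only 1 Klf3-null array had a high Y-linked signal.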

How the data were processed

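RNA of TER119+ cells from E13.5 fetal liver was measured on 15 Affymetrix arrays, with 7 used for Klf3-null against wild type and 8 for double mutant against Klf8 trap. The authors deposited 1 log2 value for each array and transcript cluster. The submitters' processing notes name RMA and Partek without a version; the background correction and the build are not given in the sources used here. Array medians were 6.28 to 6.41.

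Of 35556 clusters 23410 had at least 1 gene symbol in the platform annotation and were tested, and 12146 had none. The 21789 clusters with 1 symbol stood for 19938 genes; 21698 clusters matched the GRCm38.p6 gene table. In R 4.3.3, limma 3.58.1 estimated a mean for each genotype from the 15 arrays (lmFit, eBayes without a trend, prior degrees of freedom 4.27), two-sided, with Benjamini-Hochberg adjustment and a threshold of 0.05. The pooled spread is shared by the 4 genotypes. The median standard error was 0.121, and the number of arrays limits the precision. The script was tested on simulated data. Labels do not say that arrays are separate embryos or which share a litter, so p-values reflect only how these arrays vary, which may be technical.

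Lists (40, beside 9 of cell type markers; 721 of 786 genes measured) are described by counts and medians. Named genes are Klf3, Klf8, the 40 largest rises and all 14 falls with a single symbol that were not predicted genes or Riken clones, and list members past the threshold. For lists without one, up to 3 members with the largest difference are given. Outside this rule, Klf12, Klf6, Klf1, Fnip2, Kdelr1, Anxa2 and Rsad2, which did not pass, are given beside list members that did. A gene with several clusters is given by the brightest in a list. No fold is given where a group mean lies below the median of all its arrays. Members and lists were chosen with earlier results of these data known. Alternatives were the arrays of the pair alone, centring, quantile normalization, an intensity trend, array weights, the brighter clusters, all clusters, Y-linked or macrophage signal as covariates, a replicate block, and leaving out arrays.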

Additional observations from a re-analysis of the deposited data

Results flagged for a closer look

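Among 58 named genes, 4 had a wild-type array far from the other 3 by Dixon's criterion, which flags about 1 in 20 groups by chance. Prr13 gave 10.20 in wild-type replicate 4, where the others gave 10.57 to 10.62. Apol8 gave 10.63 in wild-type replicate 2, where the others gave 10.43 to 10.46. Tspan14 gave 9.32 in wild-type replicate 4, where the others gave 9.07 to 9.11. Tmem26 gave 7.64 in wild-type replicate 3, where the others gave 7.16 to 7.17. The first 3 kept their calls in all 7 fits without 1 array, and Tmem26 in 0. Groups of 3 arrays were not examined in this way.

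Transcript clusters without a gene symbol, which the comparison left out, also moved. When all 35556 clusters were tested together, 12 of 12146 without a symbol passed the threshold, 10 higher and 2 lower in Klf3-null arrays.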

How the results depend on the processing

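Of 58 named genes 26 kept their call in every fit in which they were tested, 41 in all 7 fits without 1 array, and 0 changed sign in any. The 137 clusters past the threshold (122 higher, 15 lower) became 481 (403 and 78) with the 7 arrays of the pair alone, where 136 of the 137 were kept and 100 were shared with double mutant minus Klf8 trap (20.8%). They became 597 (435 and 162; 72.9% higher) with array weights, 296 (254 and 42) without double mutant replicate 1 and Klf8-trap replicate 1, and 40 (33 and 7; 82.5% higher) with high Y-linked arrays alone. With the Y-linked signal as a covariate 27 were lower and 79.4% higher. Without 1 array the count ranged from 61 to 103, with 54 to 95 higher and 7 to 13 lower. Centring, quantile normalization, an intensity trend, the brighter clusters alone, all clusters and the macrophage covariate gave 110 to 146. Taking the lower or upper quartile in place of the median, 0.8% or 53.3% of the risen clusters had a wild-type mean below it.

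Labels do not say whether replicate numbers pair these arrays. Deviations from the group means correlated at 0.039, 0.105 and -0.129 for numbers 1, 2 and 3. Pairs of arrays with unlike numbers correlated at -0.223 to 0.271, so these values cannot decide whether arrays are paired. With the replicate block 133 clusters passed (118 higher, 15 lower), 113 of them among the 137, and 101 (75.9%) also passed in double mutant minus Klf8 trap. An alternative chosen after seeing the data, the overlap with double mutant minus Klf8 trap without the 2 arrays named above, gave 152 clusters past the threshold in both pairs, against 115. The causes of these changes were not tested, beyond the fewer arrays or clusters that some fits use. Signals near the array medians limit what can be said of dim genes.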
